A study of Mus musculus with 48 samples.

Results

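The 44 collagen chain genes of the mouse were examined in RNA sequencing data from 2 brain regions. They were the protein-coding genes whose symbol has the form Col, a number, a and a number, 44 of the 54532 genes in the deposited table. By the structure of the protein they encode, 11 were fibrillar chains, 6 were basement membrane chains (type IV) and 27 were other chains. The other chains comprised 6 beaded filament chains (type VI), 9 FACIT chains (fibril-associated collagens with interrupted triple helices), 2 multiplexins, 4 transmembrane chains, 3 hexagonal network chains and 3 remaining chains.

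Libraries came from male wild-type C57Bl6 mice. Osmotic minipumps delivered angiotensin II at 0.7 mg per kg per day, or saline as the vehicle, for 2 weeks. Angiotensin II is a peptide hormone that constricts vessels and raises blood pressure. Some mice of either kind drank hydralazine, a direct vasodilator, at 50 mg per kg. The 4 treatments were thus vehicle, angiotensin II, vehicle plus hydralazine and angiotensin II plus hydralazine. Hemisphere and hippocampus were sampled for each treatment, which makes 8 groups of 6 libraries and 48 libraries in all. The labels do not say whether the 6 libraries of a group are separate mice, nor which hemisphere and hippocampus came from 1 mouse, so the spread behind a p-value is that between these libraries and may be technical. No source used here gives the ages of the mice or the preparation dates.

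Levels are FPKM, fragments scaled for gene length and for the number of reads in the library. Comparisons between chains therefore rest on the deposited gene length, whose fit to the transcripts present was not checked. Reads in genes ranged from 15.77 M to 23.5 M per library in the hemisphere and from 1.21 M to 21.0 M in the hippocampus (M, mega). Of the hippocampal libraries, 6 had fewer than 16000 genes above 0: the libraries numbered 3 and 4 in vehicle and in vehicle plus hydralazine, number 3 in angiotensin II, and number 5 with both drugs. These 6 libraries are called the few-gene libraries below, and hippocampal ranges over the region as a whole are given over the other 18 libraries unless said otherwise. Ranges of a single group cover all 6 of its libraries, the few-gene libraries included. Every hippocampal library had fewer genes above 0 (7805 to 23044) than every hemispheric one (23161 to 25610). Median depth was alike, at 17.96 M and 18.97 M reads in this order. Leaving out the few-gene libraries therefore does not remove this difference between the regions. How far it affects the calls on low chains was not tested. Angiotensin II replicate 6 had the lowest mitochondrial share of reads in each region, 2.77% in the hemisphere and 5.74% in the hippocampus, below every other library of the region. The region labels matched their markers: 6 of 6 hippocampal neuron markers were higher in the hippocampus in vehicle mice (limma adjusted p under 0.05), and over all 24 libraries of a region their summed level had a median of 329.7 FPKM there and 72.4 FPKM in the hemisphere.

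Collagens are extracellular proteins built from 3 chains wound into a triple helix, in which glycine recurs at a fixed spacing along the sequence. Fibrillar collagens such as types I and III form the tough fibrils of connective tissue, and in the brain they belong mainly to the meninges and the outer coats of larger vessels. Type IV collagen forms a flexible network in the basement membranes under endothelium, around pericytes and beneath the astrocyte endfeet. Type VI collagen forms beaded filaments next to basement membranes. The multiplexins (types XV and XVIII) carry heparan or chondroitin sulfate and sit in basement membrane zones, and the C-terminal fragment of type XVIII is endostatin. Transmembrane collagens are anchored in the cell membrane, and type XXV is a neuronal one. Angiotensin II is known to raise collagen synthesis in the heart and in large arteries, and the design allows the same question to be asked of brain tissue.

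The repeat that defines these genes can be read in single exons. The following coding exons, each 54 bases long and made of 6 triplets of codons, are shown for the chains on which the results turn, 5′ to 3′ on the coding strand, with the first codon of each triplet, always a glycine codon (GGN), in capitals. The Col1a1 exon holds 1 more glycine codon, ggt, in lower case near its end. They come from the GRCm38 genome with the GENCODE M21 annotation, and the positions are those of the exons.
Col1a1: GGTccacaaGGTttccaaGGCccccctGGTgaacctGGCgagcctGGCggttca
Col1a2: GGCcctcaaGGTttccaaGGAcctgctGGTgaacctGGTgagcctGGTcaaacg
Col4a1: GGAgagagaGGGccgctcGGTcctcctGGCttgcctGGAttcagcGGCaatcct
Col4a2: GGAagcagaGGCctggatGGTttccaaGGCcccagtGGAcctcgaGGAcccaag
Col6a1: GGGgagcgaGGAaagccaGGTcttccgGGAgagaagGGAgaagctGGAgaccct
Col18a1: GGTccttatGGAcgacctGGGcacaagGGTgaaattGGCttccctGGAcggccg
Col25a1: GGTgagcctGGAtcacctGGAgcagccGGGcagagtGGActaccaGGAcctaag
The Col1a1 exon lies at chr11:94939904-94939957 (plus strand), the Col1a2 exon at chr6:4515481-4515534 (plus), the Col4a1 exon at chr8:11245211-11245264 (minus) and the Col4a2 exon at chr8:11413979-11414032 (plus). The Col6a1 exon lies at chr10:76719623-76719676 (minus), the Col18a1 exon at chr10:77067379-77067432 (minus) and the Col25a1 exon at chr3:130517684-130517737 (plus). The 7 exons were chosen for this pattern. Each is the first 54-base exon of its gene that holds a glycine codon at the start of every triplet. The classes differ in how far the repeat runs without a break. In fibrillar chains the longest unbroken run was 216 to 344 glycine triplets, 338 in Col1a1 and 339 in Col1a2. In type IV chains it was 39 to 66 triplets, and each chain had 16 to 19 runs of at least 10. Exons of exactly 54 bases numbered 21 to 33 in the fibrillar genes and 1 to 3 in the type IV genes. Col18a1 had no run longer than 30 triplets.

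In the hemisphere the single chains with the highest levels belonged to types VI and IV. Col6a1, the alpha 1 chain of type VI, had the highest level of all 44 chains, 13.96 FPKM in the lowest of the 24 libraries, 16.6 at the median and 26.7 in the highest. Col4a2 followed at 11.0, 12.2 and 14.6 FPKM. Its partner Col4a1, with which it forms the type IV trimer of most basement membranes, had 4.64, 5.58 and 6.14 FPKM, less than Col4a2 in every library. Next in level were the FACIT chain Col9a3 (median 7.33 FPKM) and the fibrillar chain Col11a2 (6.502), which are best known from cartilage, and the FACIT chains Col16a1 (5.19) and Col9a2 (4.71). Col9a3, Col11a2 and Col4a1 were neighbours in this order with ranges that overlapped. Of the fibrillar chains of ordinary connective tissue, Col1a1 stood at 3.05, Col1a2 at 2.77 and Col3a1 at 0.810 FPKM. In vehicle mice 19 of the 44 chains reached a median of 1 FPKM in the hemisphere, and 5 reached 5 FPKM.

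In the hippocampus the order was different and the levels were lower. Col4a2 led with 5.35, 5.85 and 13.9 FPKM (lowest, median and highest of the 18 libraries), followed by Col4a1 with 2.999, 4.03 and 8.51. Col11a2 (median 3.73 FPKM) and Col9a3 (3.42) came next, with overlapping ranges. Col25a1, the neuronal transmembrane chain, came after these at 2.03 FPKM. In vehicle mice 7 chains had a median of at least 1 FPKM in the hippocampus, and 1 had at least 5 FPKM. The remaining chains were low in both regions: the type IV chains Col4a3, Col4a4 and Col4a6, best known from kidney and other specialised membranes, had hemisphere medians of 0.0554 to 0.245 FPKM, and Col10a1, the chain of growth plate cartilage, had a hippocampal median of 0.

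**Figure D1:**
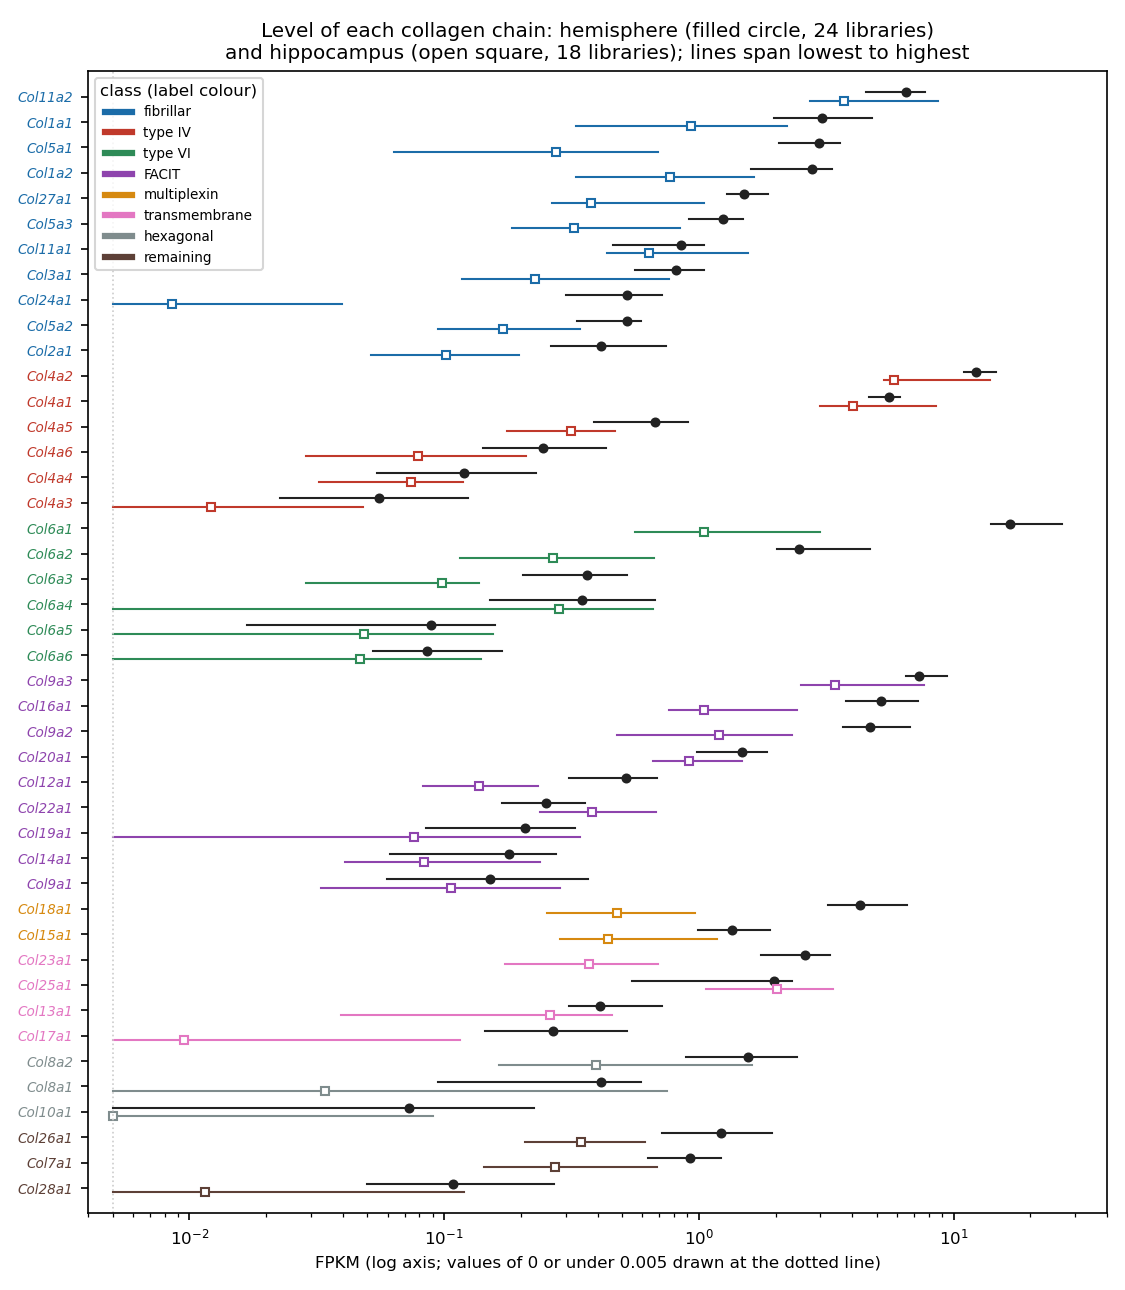
FPKM (log axis) of all 44 chains by class, with filled circles for the median of the 24 hemisphere libraries and open squares for the median of the 18 hippocampal libraries outside the few-gene libraries; lines span the lowest to the highest library. The Col6a1 medians are 16.6 and 1.04 FPKM, and the ranges of Col25a1 overlap.

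The makeup of the collagen message followed from these levels. The 44 chains summed to 86.5, 94.3 and 121.5 FPKM (lowest, median, highest) in the 24 hemisphere libraries and to 28.4, 32.2 and 56.8 FPKM in the 18 hippocampal ones, with no overlap. Type IV chains made up 19.6% of the sum at the hemisphere median (17.4% to 21.9%) and 32.2% at the hippocampal one (25.8% to 40.3%). Type VI chains made up 20.9% (19.0% to 26.8%) and 5.79% (3.45% to 6.72%). Fibrillar chains made up 22.0% and 24.9%, with overlapping ranges. The multiplexin share was 6.03% and 2.94%, and the FACIT share 20.7% and 23.0%. Over the 4 treatments of 1 region the median fibrillar share varied little, from 21.8% to 22.3% in the hemisphere and from 23.98% to 27.0% in the hippocampus. These shares are descriptions, and no test was run on them.

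The regions were compared within each treatment, in 1 limma fit of log2(FPKM + 0.5) over all 48 libraries. A gene was tested if it had at least 0.5 FPKM in at least 6 libraries, which 29 of the 44 chains did, and was called at a Benjamini-Hochberg adjusted p under 0.05 over all genes tested. In vehicle mice 23 of the 29 chains were lower in the hippocampus and 0 were higher, where 29.5% of all 17643 genes tested were lower and 12.7% higher. With angiotensin II 21 chains were lower (24.6% of all genes), with vehicle plus hydralazine 25 (38.4%), and with both drugs 23 (28.8%). No chain was higher in these 3 treatments, where 12.4%, 12.4% and 13.6% of all genes were. The median log2 fold change of the tested chains was -0.92, -0.93, -1.09 and -1.08 in the 4 treatments in this order, and that of all genes tested was -0.21, -0.14, -0.37 and -0.20. A chain that passed the filter only through its hemisphere level had to differ, so these counts lean towards lower. It bears on the 11 chains that passed the same filter within the hemisphere and not within the hippocampus, namely Col4a5, Col5a2, Col5a3, Col6a2, Col7a1, Col12a1, Col13a1, Col23a1, Col24a1, Col26a1 and Col27a1, and the test is no support for their direction. With no filter on level, all 44 chains were tested, and 31, 31, 33 and 31 were lower, where 17.7%, 14.6%, 22.4% and 17.2% of all genes were. Without the few-gene libraries 26, 24, 25 and 27 of 28 chains tested were lower, where 40%, 37.5%, 40.3% and 41.9% of all genes were. Across treatments, 20 chains were lower in all 4, 26 in at least 1, and Col25a1, Col5a2 and Col6a4 in none. The counts of 20 and 26 include chains from among those 11, and the matching shares of all genes were not counted.

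The calls depended on the scaling between libraries. Quantile scaling moved the median of all genes in vehicle mice from -0.21 to 0.04, and then 3951 genes were lower and 4043 higher, against 5198 and 2244 without it. Under it 17, 18, 16 and 17 chains were lower in the 4 treatments, where 22.4%, 20.8%, 23.8% and 22.4% of all genes were. In a fit with each library's trend on GC content and gene length removed, an alternative added after the data were seen, 16, 17, 11 and 15 were lower, where 18%, 15.9%, 19.5% and 18.2% of all genes were. Without the few-gene libraries, quantile scaling left 19, 21, 21 and 20 chains lower (30.1%, 29%, 30.3% and 30.2% of all genes) and trend removal 19, 20, 17 and 21 (28.4%, 27.2%, 28.8% and 29.6%). The 9 chains Col5a1, Col5a3, Col27a1, Col6a1, Col6a2, Col9a2, Col18a1, Col23a1 and Col7a1 were lower in all 4 treatments. This held in every alternative that tested them, up to 260 combinations of setting and treatment a chain. The combinations came from 65 settings, the main fit included. The settings include fits that differ only in the library left out, so they are not independent checks. Of these 9, Col5a1, Col6a1, Col9a2 and Col18a1 also passed the filter within the hippocampus, and the other 5 are among the 11 chains above. The share of all genes that were lower in every alternative was not counted. Region and any preparation batch cannot be told apart, since the labels give no batch. In bulk tissue, fewer cells of a type and less RNA per cell cannot be told apart either.

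**Figure D2:**
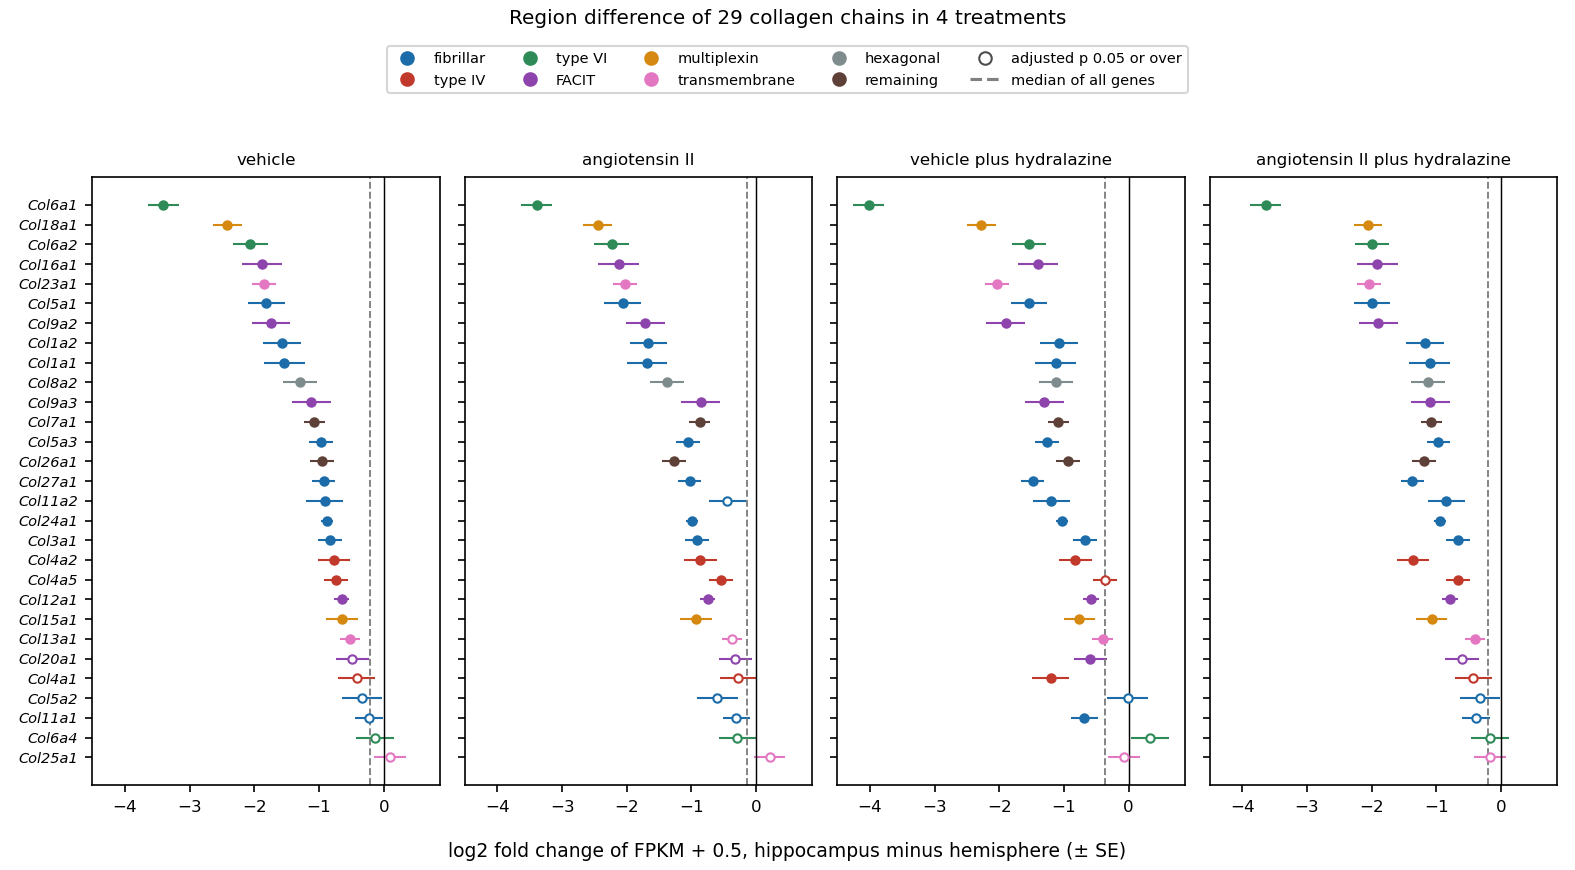
Log2 fold change of FPKM + 0.5 (hippocampus minus hemisphere, ± SE) of the 29 chains tested, with 1 panel per treatment, filled points where the adjusted p was under 0.05 and a dashed line at the median of all genes. Col6a1 stands lowest in all 4 panels, and Col25a1, Col5a2 and Col6a4 are open in all 4.

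Type VI held the chain with the largest log2 fold change. Col6a1 had 13.96, 16.8 and 18.2 FPKM (lowest, median, highest of 6) in the vehicle hemisphere and 0.561, 1.08 and 1.65 FPKM in the vehicle hippocampus. All 24 hemisphere libraries lay above all 24 hippocampal ones, whose highest was 2.98 FPKM. The log2 fold change was -3.41 ± 0.24 in vehicle mice (SE, limma adjusted p = 1.1e-15) and lay between -4.02 and -3.39 over the treatments. Col6a2, the alpha 2 chain, had 2.18, 2.31 and 2.71 FPKM in the vehicle hemisphere and 0, 0.166 and 0.407 in the vehicle hippocampus. Its log2 fold change was -2.06 ± 0.27 there (adjusted p = 1.77e-08). Col6a2 passed the filter within the hemisphere only, so the test is no support for its direction. Col6a3, which completes the classical type VI trimer, was low in both regions, with medians of 0.365 and 0.0979 FPKM, and was not tested with the filter. The other type VI chain tested, Col6a4, did not pass in any treatment (-0.29 to 0.33).

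The multiplexins were both lower. Col18a1 had 3.37, 4.24 and 5.14 FPKM in the vehicle hemisphere and 0, 0.403 and 0.964 in the vehicle hippocampus, with no overlap between the 24 hemisphere and the 24 hippocampal libraries. The log2 fold change was -2.42 ± 0.22 (adjusted p = 3.12e-12). Col15a1 had 1.16, 1.33 and 1.66 against 0.387, 0.592 and 1.71 FPKM, and these groups overlapped through 1 few-gene library. Its log2 fold change was -0.65 ± 0.24 (adjusted p = 0.0292). The ratio of Col15a1 to Col18a1, looked at after the values were seen, was 0.321 at the hemisphere median (0.199 to 0.489) and 0.797 at the hippocampal median (0.423 to 2.58) of the 18 libraries.

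Col6a2, Col6a1 and Col18a1, the chains with the 3 largest log2 fold changes in vehicle mice, lie on chromosome 10 within 571 kb of each other, at chr10:76595762-76623630, chr10:76708792-76726168 and chr10:77052178-77166548, all on the minus strand. The span holds 2 other protein-coding genes. Pcbp3, an RNA-binding protein gene, had a log2 fold change of -0.15 (adjusted p = 0.325), and Slc19a1, a folate carrier gene, had -0.53 (adjusted p = 0.147), so neither passed. Slc19a1 overlaps Col18a1 on the opposite strand and no source used here states whether counting used strand, so their reads may be shared in part. This neighbourhood was noticed in the data. The order is that of log2(FPKM + 0.5) among the chains tested, and this scale shrinks the change of low chains. Another order came from the ratio of the medians of the 24 hemisphere and 18 hippocampal libraries. By that ratio Col24a1 (61.0) and Col5a1 (10.8) stood above Col6a2 (9.20) and Col18a1 (8.96). So did Col17a1 (28.15), Col8a1 (12.15) and Col28a1 (9.38), low chains not tested with the filter.

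In vehicle mice 8 of the 10 fibrillar chains tested were lower, where 29.5% of all genes were. Over the 4 treatments 7 to 9 were lower, where 24.6% to 38.4% of all genes were. Of the 10, Col5a2, Col5a3, Col24a1 and Col27a1 passed the filter within the hemisphere only, so the test is no support for their direction. Col1a1, which pairs with Col1a2 in type I collagen, had 2.13, 2.94 and 3.30 FPKM in the vehicle hemisphere and 0, 0.743 and 1.42 in the vehicle hippocampus, without overlap. The log2 fold change was -1.54 ± 0.31 (adjusted p = 8.72e-05) in vehicle mice, -1.69 with angiotensin II, -1.12 with vehicle plus hydralazine and -1.10 with both drugs. Col1a2 gave -1.57, -1.67, -1.08 and -1.18. Col3a1, the type III chain of vessel walls and meninges, gave -0.83, -0.92, -0.68 and -0.67, from 0.737 FPKM at the vehicle hemisphere median to 0.171 at the hippocampal one. Under quantile scaling Col3a1 passed with angiotensin II only (-0.41, adjusted p = 0.0433), and its value with vehicle plus hydralazine turned to 0.09 (adjusted p = 0.675). Under the fit with the GC and length trend removed, Col1a1 no longer passed in the 2 treatments with hydralazine (-0.45 and -0.59, adjusted p = 0.195 and 0.0956). Of the minor fibrillar chains, Col5a1, which regulates fibril diameter, gave -1.81 ± 0.28 (adjusted p = 9.76e-07), with medians of 2.96 FPKM over the 24 hemisphere and 0.274 over the 18 hippocampal libraries. Col24a1 had a median of 0.521 FPKM over the 24 hemisphere libraries, and 13 of the 24 hippocampal libraries were at 0 with a highest value of 0.0397, so its level in the hippocampus was close to that of single reads. Col11a1 was called in 1 treatment of 4 and Col5a2 in none (-0.60 to -0.01).

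Of the type IV chains, Col4a2 had 11.0, 12.02 and 13.3 FPKM in the vehicle hemisphere and 5.44, 6.14 and 11.1 in the vehicle hippocampus, and the highest hippocampal library, a few-gene library, lay just above the lowest hemisphere one. Its log2 fold change was -0.77 ± 0.25 (adjusted p = 0.0114) in vehicle mice and -0.86, -0.82 and -1.36 in the other treatments. With the GC and length trend removed it passed only with both drugs (-0.87, adjusted p = 0.00608), and the other values were -0.26, -0.37 and -0.17. Col4a1 had 4.64, 5.40 and 5.89 FPKM in the vehicle hemisphere and 2.21, 4.03 and 5.83 in the vehicle hippocampus, with overlap. It passed in 1 treatment, vehicle plus hydralazine (-1.21, adjusted p = 4.73e-04), where 2 few-gene libraries were the lowest of the group. Without the few-gene libraries Col4a1 gave -0.38 in vehicle mice (adjusted p = 0.00592), -0.22 with angiotensin II (0.0804), -0.49 with vehicle plus hydralazine (4.32e-04) and -0.45 with both drugs (5.31e-04). With the GC and length trend removed Col4a1 turned to 0.13 in vehicle mice, 0.25 with angiotensin II and 0.10 with both drugs, none of which passed, and the call with vehicle plus hydralazine was lost (-0.52, adjusted p = 0.0651). Without the few-gene libraries as well, Col4a1 was higher in the hippocampus with angiotensin II (0.27, adjusted p = 0.0169). Col4a5, which passed the filter within the hemisphere only, was called lower in 3 treatments.

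The balance between the 2 main type IV chains was then set side by side, with no test. The ratio of Col4a1 to Col4a2 was 0.371, 0.452 and 0.519 (lowest, median, highest) in the 24 hemisphere libraries and 0.498, 0.678 and 0.766 in the 18 hippocampal ones, so the ranges barely met. Within the hemisphere the group medians were 0.460 in vehicle, 0.459 with angiotensin II, 0.473 with vehicle plus hydralazine and 0.436 with both drugs. Col4a1 and Col4a2 lie head to head on chromosome 8, and their spans in the deposited table (chr8:11198423-11312826 and chr8:11312805-11449287) overlap by 22 bases. Col4a3 and Col4a4 are arranged in the same way on chromosome 1 with 71 bases between them, and Col4a5 and Col4a6 on the X chromosome with 1308 bases. The ratio of Col1a1 to Col1a2 was 1.14 at the hemisphere and 1.22 at the hippocampal median, with overlapping ranges. The ratio of Col6a1 to Col6a2 was 6.53 (5.67 to 7.98) and 3.89 (1.68 to 9.66), again overlapping. The size of these ratios depends on the deposited gene lengths. Those were 4380 bases for Col6a1 (1025 codons) and 8326 for Col6a2 (1034 codons). For type I they were 6563 bases for Col1a1 (1453 codons) and 12426 for Col1a2 (1372 codons).

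**Figure D3:**
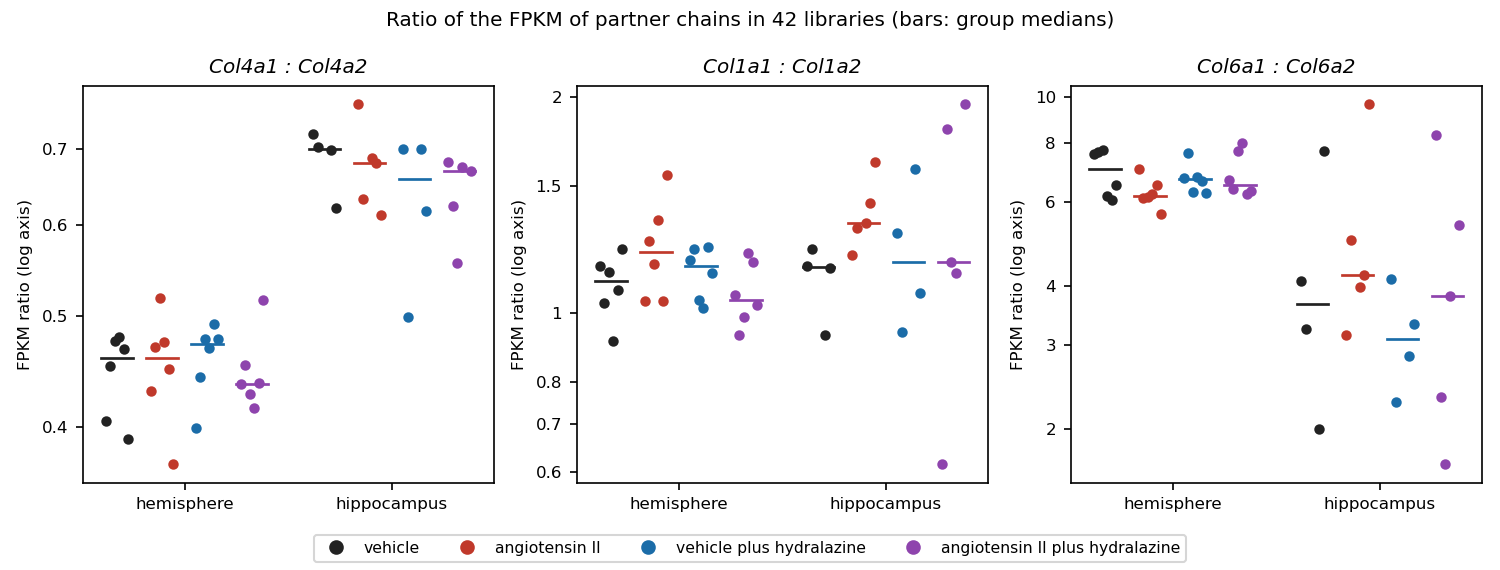
Ratio of the FPKM of partner chains (log axis) in the 42 libraries outside the few-gene libraries, by region and treatment, with bars at group medians. The Col4a1 to Col4a2 ratio is 0.371 to 0.519 in the hemisphere and 0.498 to 0.766 in the hippocampus, and the other 2 ratios overlap.

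Among FACIT chains Col16a1, found near fibrils and at basement membranes, gave -1.88 ± 0.31 in vehicle mice (adjusted p = 2.8e-06), Col9a2 -1.74 ± 0.30 (5.36e-06) and Col9a3 -1.12 ± 0.30 (0.00237). Col9a3 had 6.60, 7.21 and 7.47 FPKM in the vehicle hemisphere and 1.62, 3.38 and 3.64 in the vehicle hippocampus, without overlap. Col20a1 passed in 1 treatment, with an adjusted p of 0.0494. Another gene of the table, 9230112E08Rik, lies over Col20a1 on the same strand with a hemisphere median of 4.03 FPKM, so the level of Col20a1 is uncertain. Col22a1, a chain of tissue junctions, was not tested with the filter and was 1 of 2 chains with a higher median in the hippocampus, 0.381 against 0.251 FPKM. Its log2 fold change without a filter was 0.37 in vehicle mice (adjusted p = 0.175).

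Of the 3 transmembrane chains tested, Col23a1 and Col13a1 were lower in vehicle mice. Col23a1 had 1.75, 2.60 and 2.85 FPKM in the vehicle hemisphere and 0, 0.398 and 0.495 in the vehicle hippocampus, with no overlap in 24 against 24 libraries, and its log2 fold change was -1.85 ± 0.18 (adjusted p = 2.69e-11). Col25a1 had 1.81, 2.01 and 2.32 FPKM in the vehicle hemisphere and 1.16, 2.03 and 4.52 in the vehicle hippocampus, and the groups overlapped. Its log2 fold change was 0.09 in vehicle mice, with a 95% interval of -0.40 to 0.59 and an adjusted p of 0.793, and it passed in no treatment. Without the few-gene libraries it was higher in the hippocampus with angiotensin II (0.43 ± 0.15, adjusted p = 0.0156), a comparison that holds the outlying angiotensin II replicate 6 (0.545 FPKM in the hemisphere, where the other 5 had 1.75 to 2.02). Col13a1 had medians of 0.408 FPKM over the 24 hemisphere and 0.261 over the 18 hippocampal libraries and was called lower in 3 of the 4 treatments. Its sign depended on the scaling: over 228 fits and treatments it was called lower in 154, and it was above 0 in 15, all with quantile scaling or trend removal, of which 1 was called (quantile scaling, vehicle plus hydralazine, 0.36, adjusted p = 0.0128). Both Col13a1 and Col23a1 are among the 11 chains that passed the filter within the hemisphere only. Col17a1, a hemidesmosome chain, was not tested with the filter and had medians of 0.268 FPKM over the 24 hemisphere and 0.00953 over the 18 hippocampal libraries. The hexagonal chain Col8a2, a component of Descemet's membrane, gave -1.29 ± 0.26 in vehicle mice (adjusted p = 8.01e-05), from a median of 1.51 to 0.255 FPKM. Of the remaining chains, Col26a1 gave -0.95 ± 0.19 and Col7a1, which forms anchoring fibrils, -1.07 ± 0.16, both among the chains that passed the filter through the hemisphere.

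Markers of other cell types moved between the regions too, and their sums are given over all 24 libraries of each region. In vehicle mice 29.5% of all genes tested were lower in the hippocampus and 12.7% higher. The markers passed the same filter over both regions, and which of them passed through 1 region only is not given. For any that did, the test is no support for their direction. Of 12 tested markers of leptomeningeal and perivascular fibroblasts, the main source of fibrillar collagen in the brain, 9 were lower in the vehicle hippocampus. The list summed to 52.8 to 112.4 FPKM in the hemisphere (median 73.13) and 16.8 to 85.9 FPKM in the hippocampus (median 39.35). Igf2 had a hippocampal median of 0. Of 9 choroid plexus markers 8 were lower, with sums of 292.1 to 843.1 (median 542.8) and 2.69 to 2010 FPKM (median 17.69). Of 9 endothelial markers 6 were lower and 1 higher, with sums of 90.8 to 134.7 (median 108.8) and 59.9 to 155.5 FPKM (median 116.7). Of 7 pericyte markers 4 were lower, with sums of 68.0 to 102.2 (median 82.16) and 31.0 to 85.9 FPKM (median 65.77). None of 3 smooth muscle markers tested passed, with sums of 6.37 to 20.7 (median 10.67) and 7.45 to 63.6 FPKM (median 19.79). Myocd had a hippocampal median of 0. The part of these markers in the collagen differences was not tested.

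Some other genes of collagen biology were also called lower in the vehicle hippocampus, where 29.5% of all genes were. They passed the same filter over both regions, and which of them passed through the hemisphere only is not given. For any that did, the test is no support for their direction. Among genes that modify, fold and process collagen, 10 of 24 tested were lower and 0 higher, among them P3h3, a prolyl hydroxylase (-0.89 ± 0.13, limma adjusted p = 1.48e-07), Bmp1, the procollagen C-proteinase (-0.84 ± 0.13), and Adamts2, a procollagen N-proteinase (-1.09 ± 0.19). Of the other basement membrane genes 12 of 14 were lower, with agrin (Agrn, -1.05 ± 0.15) and perlecan (Hspg2, -0.83 ± 0.17). Of the receptors 5 of 7 were lower, with integrin beta 1 (Itgb1, -0.75 ± 0.17) and the collagen receptor Ddr2 (-0.67 ± 0.19). Of the turnover genes 8 of 11 were lower, with the inhibitors Timp2 (-1.60 ± 0.13) and Timp3 (-2.32 ± 0.38). Of 9 genes for small proteoglycans and other fibril partners 5 were lower and 1 higher, with osteonectin (Sparc, -1.29 ± 0.12) and decorin (Dcn, -1.68 ± 0.40).

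In the hemisphere, angiotensin II was compared with vehicle first, and no collagen chain passed. Of the 28 chains tested, 0 had an adjusted p under 0.05 against vehicle (limma), where 12 of 16747 genes, 0.0717%, did. At an unadjusted p under 0.05 there were 5 chains, where 9.24% of all genes were. The estimates leaned upwards: 25 of 28 were above 0 with a median of 0.11, where 49.93% of all genes were above 0 with a median of 0.00. The chains of a tissue share their source cells, so they are not independent of each other and do not count as replicates. These estimates include angiotensin II replicate 6, and the count above 0 without that library is not given here. By class, 8 of 10 fibrillar, 3 of 3 type IV and 14 of 15 other chains were above 0, with medians of 0.07, 0.05 and 0.15.

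Col1a1 had the highest estimate, from 2.13, 2.94 and 3.30 FPKM (lowest, median, highest) with vehicle to 2.77, 3.39 and 4.79 with angiotensin II. The groups overlapped, and the log2 fold change was 0.27 ± 0.13 (95% interval 0.01 to 0.53, adjusted p = 0.538). Col6a2 (0.26 ± 0.10), Col26a1 (0.26 ± 0.10), Col16a1 (0.21 ± 0.09) and Col20a1 (0.19 ± 0.09) were the other chains with an unadjusted p under 0.05, and their adjusted p lay between 0.490 and 0.536. These 5 were named after their values were seen. Without angiotensin II replicate 6, which had the highest level of each of these 5 chains in its group, only Col6a2 kept an unadjusted p under 0.05 (0.14 ± 0.06, limma adjusted p = 0.655), and Col1a1 gave 0.19 ± 0.12. The type IV chains had the narrowest intervals: Col4a1 gave 0.07 (-0.05 to 0.18) and Col4a2 0.05 (-0.07 to 0.17). Col4a1 had 4.64, 5.40 and 5.89 FPKM with vehicle and 5.41, 5.63 and 5.76 with angiotensin II. Col3a1 gave 0.16 (-0.03 to 0.34), Col18a1 0.10 (-0.12 to 0.33) and Col15a1 0.05 (-0.15 to 0.24). Col25a1 was the lowest estimate at -0.27 (-0.57 to 0.03), and -0.07 without replicate 6. In the same comparison 9 of 9 choroid plexus markers were below 0, with 0 called and summed medians of 636.6 FPKM with vehicle and 526.9 FPKM with angiotensin II, and 10 of 12 fibroblast markers were above 0 with 0 called. Of 9 endothelial markers 1, Podxl, passed and was higher. The part of these markers in the collagen estimates was not tested.

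**Figure D4:**
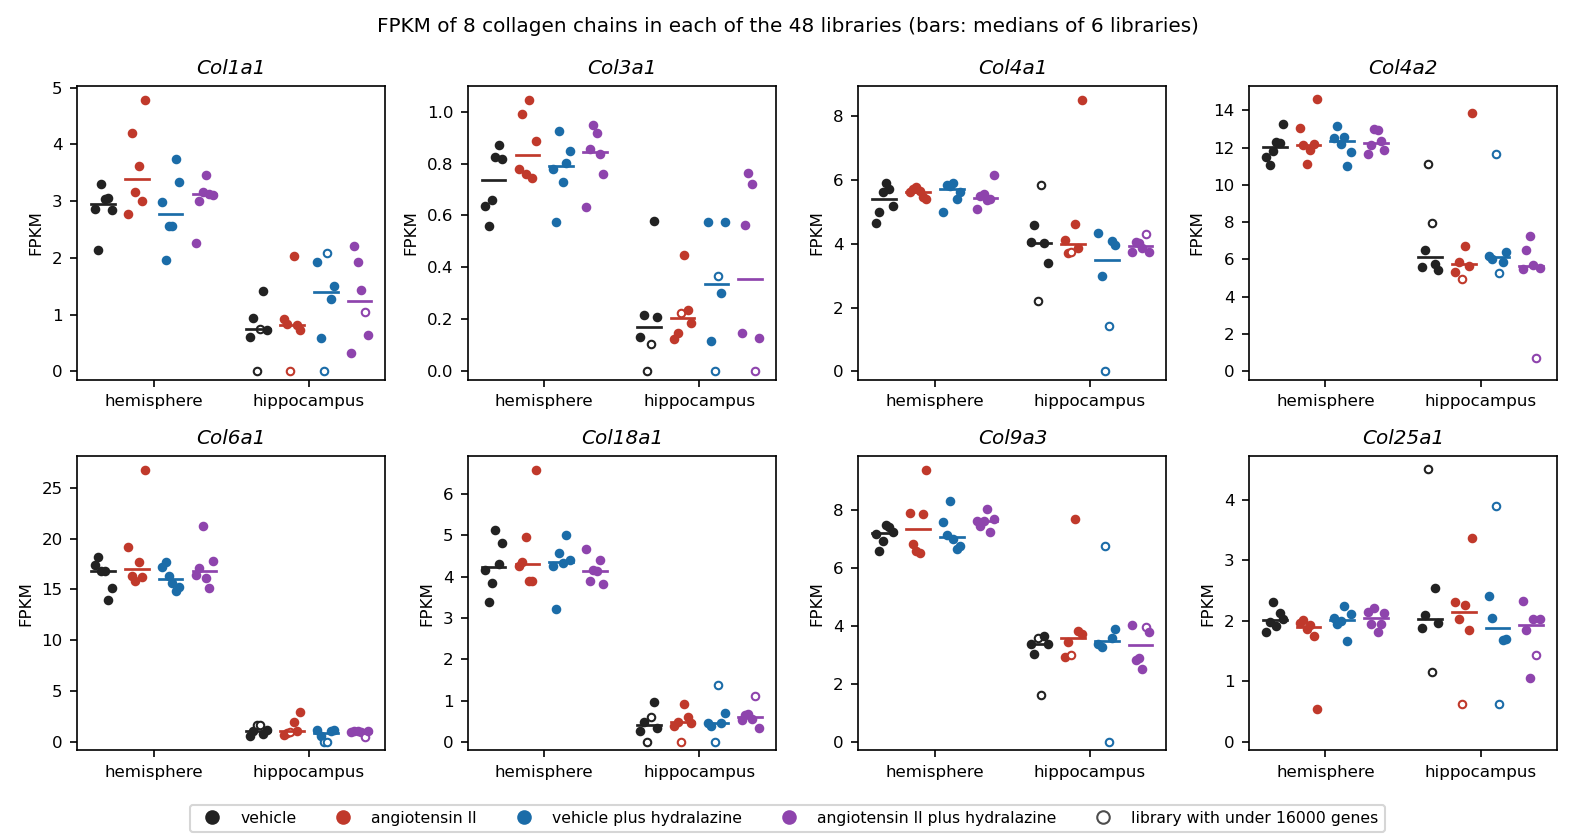
FPKM of 8 chains in each of the 48 libraries, by region and treatment, with bars at the medians of 6 libraries and open circles for the few-gene libraries. Within each region the 4 treatments overlap, while Col6a1 and Col18a1 separate the regions completely.

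**Figure D5:**
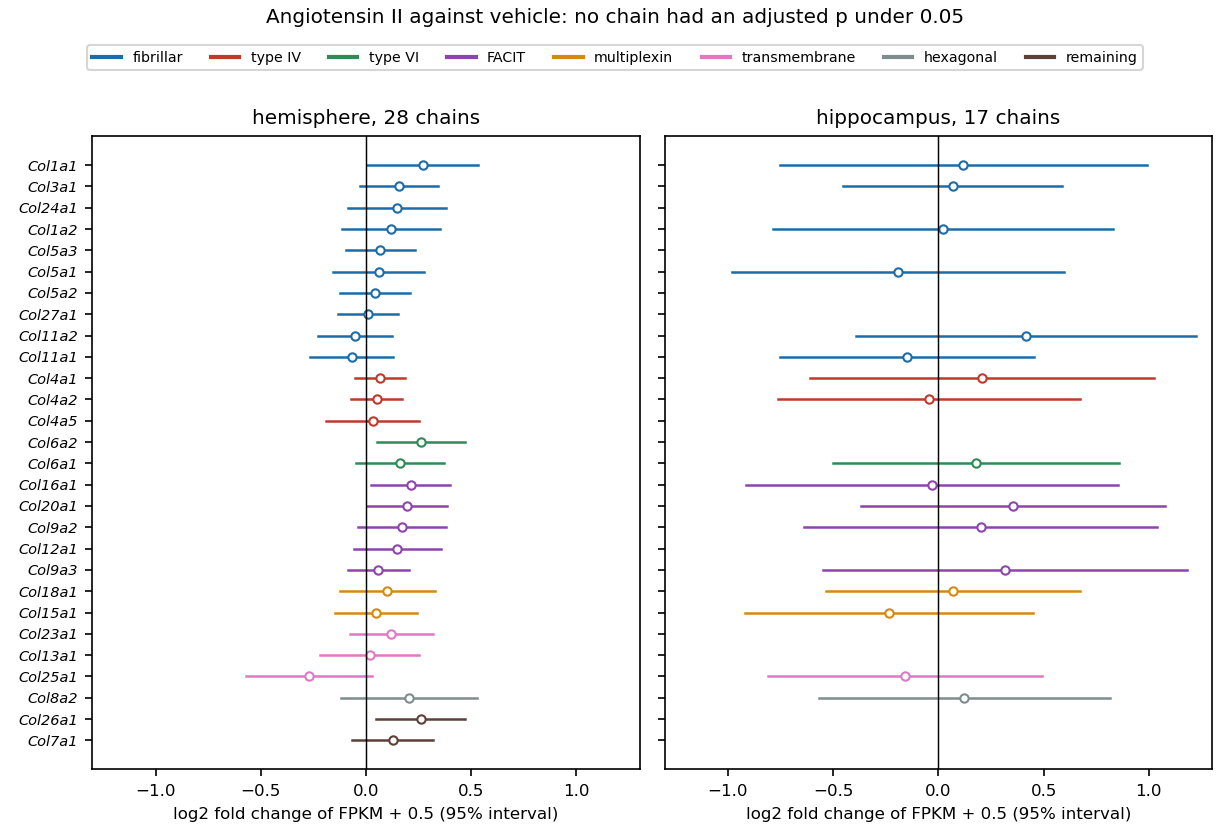
Log2 fold change of FPKM + 0.5 between angiotensin II and vehicle (95% intervals) for the 28 chains tested in the hemisphere and the 17 tested in the hippocampus, by class. The hippocampal intervals are wider, and no chain had an adjusted p under 0.05.

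In the hippocampus 17 chains could be tested, and 0 passed for angiotensin II against vehicle, where 0.0% of all 15267 genes did. No chain and 210 of all genes had an unadjusted p under 0.05. All 17 intervals were wider than in the hemisphere: Col1a1 gave 0.12 (-0.75 to 0.99), Col4a1 0.21 (-0.61 to 1.03), Col4a2 -0.04 (-0.76 to 0.67) and Col6a1 0.18 (-0.50 to 0.86). A difference of the size estimated in the hemisphere was therefore not detectable there. The effect of angiotensin II differed between the regions for 0 of 29 chains, and 0.0% of all genes.

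Hydralazine comparisons gave no call either. Comparing both drugs with angiotensin II alone, 0 of 28 chains passed in the hemisphere and 0 of 17 in the hippocampus, and the same counts held for hydralazine alone against vehicle, for both drugs against vehicle and for the interaction of the drugs, where 0.0% of all genes passed in each region. At an unadjusted p under 0.05 there were 0 chains in each of these 8 comparisons. In the hemisphere Col1a1 had a median of 3.39 FPKM with angiotensin II and 3.12 with both drugs, 2.78 with vehicle plus hydralazine and 2.94 with vehicle. Averaged over hydralazine, the angiotensin II effect in the hemisphere passed for 0 of 28 chains, where 0.0299% of all genes passed, and 3 chains had an unadjusted p under 0.05: Col16a1 (0.18 ± 0.06), Col9a2 (0.20 ± 0.07) and Col6a2 (0.16 ± 0.07), with adjusted p of 0.418, 0.430 and 0.525. In the hippocampus the corresponding angiotensin II effect passed for 0 of 17 chains, where 0.0% of all genes passed. The hydralazine effect averaged over angiotensin II passed for 0 chains in both regions, where 0.0% of all genes passed in each, and the single chain with an unadjusted p under 0.05 was Col6a1 in the hippocampus (-0.48 ± 0.23, adjusted p = 0.873). The shares of all genes with an unadjusted p under 0.05 are not given for these comparisons, so no result about the chains is read from those counts. These comparisons share control libraries, so they are not independent of each other.

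The levels of the chains in the treated groups, each as the lowest, median and highest of 6 libraries with the few-gene libraries included, show how close the treatments lay. In the hippocampus Col1a1 had 0, 0.822 and 2.04 FPKM with angiotensin II, 0, 1.39 and 2.08 with vehicle plus hydralazine and 0.330, 1.24 and 2.22 with both drugs. In the hemisphere Col1a1 had 2.77, 3.39 and 4.79 FPKM with angiotensin II, 1.97, 2.78 and 3.74 with vehicle plus hydralazine and 2.27, 3.12 and 3.46 with both drugs. The ranges of the 4 treatments share a common stretch in each region for Col1a1 and for the other 10 chains given by group here. Col1a2 had 2.07, 2.65 and 3.32 FPKM with vehicle in the hemisphere and 0, 0.582 and 1.52 in the hippocampus. With treatment, hemispheric Col1a2 had 2.67, 2.803 and 3.34 FPKM with angiotensin II, 1.61, 2.52 and 3.03 with vehicle plus hydralazine and 2.15, 2.95 and 3.23 with both drugs. Hippocampal Col1a2 had 0, 0.602 and 1.53 FPKM with angiotensin II, 0, 1.11 and 2.25 with vehicle plus hydralazine and 0.330, 1.24 and 1.64 with both drugs. Col3a1, the type III chain, was the least abundant of these 3. Hemispheric Col3a1 had 0.743, 0.833 and 1.05 FPKM with angiotensin II, 0.575, 0.791 and 0.924 with vehicle plus hydralazine and 0.634, 0.846 and 0.949 with both drugs. In the hippocampus Col3a1 had 0.125, 0.204 and 0.446 FPKM with angiotensin II, 0, 0.335 and 0.576 with vehicle plus hydralazine and 0, 0.355 and 0.763 with both drugs.

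Among type IV chains, hemispheric medians lay close together. Hemispheric Col4a1 had 5.41, 5.63 and 5.76 FPKM with angiotensin II, 4.98, 5.72 and 5.896 with vehicle plus hydralazine and 5.07, 5.44 and 6.14 with both drugs. Hemispheric Col4a2 had 11.1, 12.2 and 14.6 FPKM with angiotensin II, 11, 12.3 and 13.2 with vehicle plus hydralazine and 11.7, 12.2 and 12.98 with both drugs. The hippocampal ranges were wider than the hemispheric ones in most groups. Hippocampal Col4a1 had 3.71, 3.98 and 8.51 FPKM with angiotensin II, 0, 3.48 and 4.35 with vehicle plus hydralazine and 3.73, 3.94 and 4.31 with both drugs. Hippocampal Col4a2 had 4.98, 5.76 and 13.9 FPKM with angiotensin II, 5.28, 6.11 and 11.7 with vehicle plus hydralazine and 0.741, 5.63 and 7.24 with both drugs. In type VI, 1 library set the top of the angiotensin II range. Hemispheric Col6a1 had 15.8, 17.01 and 26.7 FPKM with angiotensin II, 14.8, 15.99 and 17.7 with vehicle plus hydralazine and 15.2, 16.8 and 21.2 with both drugs. Hippocampal Col6a1 had 0.706, 1.02 and 2.98 FPKM with angiotensin II, 0, 0.825 and 1.198 with vehicle plus hydralazine and 0.458, 1.01 and 1.12 with both drugs.

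The multiplexins likewise overlapped between treatments. Hemispheric Col18a1 had 3.88, 4.296 and 6.58 FPKM with angiotensin II, 3.22, 4.36 and 5.01 with vehicle plus hydralazine and 3.82, 4.14 and 4.67 with both drugs. Hippocampal Col18a1 had 0, 0.472 and 0.928 FPKM with angiotensin II, 0, 0.457 and 1.37 with vehicle plus hydralazine and 0.340, 0.5999 and 1.102 with both drugs. Col15a1, the other multiplexin, was less abundant. Hemispheric Col15a1 had 1.07, 1.38 and 1.91 FPKM with angiotensin II, 0.996, 1.303 and 1.604 with vehicle plus hydralazine and 1.23, 1.35 and 1.49 with both drugs. Hippocampal Col15a1 had 0.173, 0.469 and 1.18 FPKM with angiotensin II, 0, 0.460 and 3.07 with vehicle plus hydralazine and 0.284, 0.391 and 0.468 with both drugs. The neuronal chain Col25a1 reached its lowest hemispheric value in angiotensin II replicate 6. In the hemisphere Col25a1 had 0.545, 1.902 and 2.02 FPKM with angiotensin II, 1.67, 2.02 and 2.24 with vehicle plus hydralazine and 1.81, 2.04 and 2.21 with both drugs. In the hippocampus Col25a1 had 0.626, 2.14 and 3.37 FPKM with angiotensin II, 0.623, 1.87 and 3.903 with vehicle plus hydralazine and 1.06, 1.94 and 2.33 with both drugs.

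Col8a2 had 1.003, 1.51 and 2.02 FPKM with vehicle in the hemisphere and 0, 0.255 and 1.16 in the hippocampus. With treatment, hemispheric Col8a2 had 1.36, 1.82 and 2.21 FPKM with angiotensin II, 0.889, 1.48 and 2.42 with vehicle plus hydralazine and 1.06, 1.54 and 1.76 with both drugs. Hippocampal Col8a2 had 0, 0.285 and 1.61 FPKM with angiotensin II, 0, 0.504 and 0.905 with vehicle plus hydralazine and 0.206, 0.313 and 0.887 with both drugs. Col9a3, the most abundant FACIT chain, overlapped between treatments as well. Hemispheric Col9a3 had 6.51, 7.35 and 9.38 FPKM with angiotensin II, 6.66, 7.08 and 8.32 with vehicle plus hydralazine and 7.23, 7.64 and 8.04 with both drugs. Hippocampal Col9a3 had 2.94, 3.59 and 7.68 FPKM with angiotensin II, 0, 3.48 and 6.75 with vehicle plus hydralazine and 2.52, 3.35 and 4.03 with both drugs. The highest hippocampal values of Col8a2 and Col9a3 were in the same library, angiotensin II replicate 4.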

How the data were processed

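RNA from mouse hemisphere and hippocampus was sequenced, and the deposited table gives FPKM per gene and library as the authors made it. The submitters' processing notes name DESeq 1.10.1 and the build GRCm38 (mm10); no source used here states the aligner, the counter or the use of strand. Every value column matched 1 sample by its title. FPKM times gene length gave whole multiples of 1 read within a tolerance of 0.1 of a read, which gave the depth of each library.

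Values were tested as log2(FPKM + 0.5), so a fold change understates that of a low gene, with limma 3.58.1 in R 4.3.3 (trend and robust prior). A gene entered a fit if 6 or more of its libraries had 0.5 FPKM or more, with Benjamini-Hochberg adjustment over all of them. Treatments were compared within the 24 libraries of a region and regions within the 48 libraries. The script was tested on simulated data. Tables and plots were made with Python 3.11.15, pandas 2.3.3 and matplotlib 3.10.9.

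Members, classes and gene lists were chosen with earlier results of these data known. Named chains are those called in a comparison (the 5 largest changes in each direction beyond 10), the highest chain of each class, and Col1a1, Col1a2, Col3a1, Col4a1, Col4a2, Col6a1, Col15a1, Col18a1, Col25a1, Col8a2 and Col9a3; chains named beyond this rule were chosen after their values were seen. Up to 4 genes a partner list with the smallest adjusted p are named. One gene that this rule names is not reported here. Alternatives were the pseudocount (0.1 and 1), the filter, scaling by quantiles or by median of ratios, library weights, a plain limma prior, only the groups compared, a replicate block, and left-out libraries. Removal of the GC and length trend, and its combination or that of quantile scaling with leaving out the few-gene libraries, were added after seeing the data.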

Additional observations from a re-analysis of the deposited data

Results flagged for a closer look

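Within groups of 6 libraries, 19 of 112 chain levels had 1 library set apart, where the gap to the nearest library, over the group's range, exceeded Dixon's 95% critical value. Chance alone sets apart about 1 in 20 groups. Of the 19, 9 were few-gene libraries and 5 were angiotensin II replicate 6.

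In angiotensin II replicate 6, hemispheric Col6a1 was 26.7 FPKM (the other 5 had 15.8 to 19.1), Col26a1 was 1.94 (1.17 to 1.33) and Col25a1 was 0.545 (1.75 to 2.02). In its hippocampal library Col4a1 was 8.51 FPKM (3.71 to 4.63) and Col4a2 was 13.9 (4.98 to 6.73). Both type IV partners were thus high in the same library.

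In hippocampal angiotensin II replicate 4, Col9a3 was 7.68 FPKM (2.94 to 3.83), Col8a2 was 1.61 (0 to 0.568) and Col3a1 was 0.446 (0.125 to 0.237). The summed choroid plexus markers of the hippocampus reached 2010 FPKM in that library, against a hippocampal median of 17.7 FPKM, and their part in these levels was not tested.

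Among few-gene libraries, replicate 3 of hippocampal vehicle plus hydralazine had Col4a2 at 11.7 FPKM (5.28 to 6.41), Col15a1 at 3.07 (0 to 0.530) and Col11a2 at 0 (2.93 to 4.15), and replicate 4 had Col26a1 at 1.16 (0 to 0.419). Replicate 5 of hippocampal angiotensin II plus hydralazine had Col4a2 at 0.741 FPKM (5.50 to 7.24) and Col6a1 at 0.458 (0.961 to 1.12). In hippocampal vehicle, replicate 3 had Col15a1 at 1.71 FPKM (0.387 to 0.781) and Col23a1 at 0 (0.347 to 0.495), and replicate 4 had Col9a3 at 1.62 (3.05 to 3.64).

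In the hemisphere, Col23a1 was 1.75 FPKM in vehicle replicate 1 (2.54 to 2.85) and 3.27 FPKM in replicate 3 of vehicle plus hydralazine (2.20 to 2.60).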

How the results depend on the processing

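The 15 treatment comparisons, the regional difference of the angiotensin II effect included, gave 0 chains under every alternative run. Leaving out 1 library at a time left 21 to 24 chains lower in the hippocampus in vehicle mice, 20 to 24 with angiotensin II, 23 to 25 with vehicle plus hydralazine and 22 to 25 with both drugs, and 0 in every other count. In vehicle plus hydralazine, quantile scaling gave 16 lower and 2 higher chains and removal of the GC and length trend 11 and 1, against 25 and 0. With both drugs, trend removal gave 15 lower, against 23. With angiotensin II, 1 chain was higher under quantile scaling, without the few-gene libraries and under both together, and 2 under trend removal without these libraries, which also gave 1 in vehicle mice. The cause was not tested. For the fits with 1 library left out, and for the counts of higher chains, the shares of all genes are not given here. Those counts show only how the calls on chains moved with the processing.

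Signs turned for Col3a1, Col4a1, Col11a2 and Col25a1, and the values of Col3a1 and Col4a1 with vehicle plus hydralazine had been called lower. Low chains such as Col13a1 and Col5a2 turned too. With the GC and length trend removed Col4a1 gave 0.129 in vehicle mice, 0.250 with angiotensin II and 0.104 with both drugs. Without the few-gene libraries as well, Col4a1 gave 0.178, 0.270 (adjusted p = 0.0169), 0.055 with vehicle plus hydralazine and 0.065 with both drugs. Col11a2 with angiotensin II gave 0.008 and 0.143 under these fits. Col3a1 with vehicle plus hydralazine gave 0.090 under quantile scaling. Col25a1 gave -0.029 in vehicle mice with library weights, -0.085 to 0.234 with 1 library left out at a time (lowest without hippocampal vehicle replicate 3), and -0.129 with angiotensin II without its replicate 6. With vehicle plus hydralazine Col25a1 gave 0.423 (quantile), 0.355 (trend removed), 0.245 and 0.271 (each without the few-gene libraries) and -0.255 to 0.140 with 1 library left out (highest without hippocampal replicate 4). With both drugs Col25a1 gave 0.173, 0.144, 0.164 and 0.168 in the same order. Of the other values, 58 lost and 16 gained the call.

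Libraries with the same replicate number were not taken as paired, since not every pair deviated together: 3 of 36 pairs in the hemisphere, 8 of 36 in the hippocampus and 0 of 24 across regions correlated above 0.1. With the replicate block, 23, 21, 23 and 22 chains were lower in the 4 treatments and 0 chains were called for any treatment. The shares of all genes lower in that fit are not given here, so these counts show only that the calls on chains changed little. Hippocampal depth, lowest in replicate 3 of vehicle plus hydralazine, limits the low chains there most.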

Other observations

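The type I and III chains were set against decorin (Dcn), a small proteoglycan of fibroblasts that binds collagen fibrils, after the data were seen. Across the 18 hippocampal libraries outside the few-gene libraries, Col1a2 followed Dcn with Pearson's r = 0.91 (two-sided permutation p = 1e-05, the smallest that 100000 resamples can give, adjusted p = 0.00012 over 12 relations) and Spearman's rho = 0.91 (p = 1e-05, adjusted p = 0.00012). Col1a1 gave r = 0.88 (permutation p = 2e-05, adjusted 0.00012) and rho = 0.86 (2e-05, adjusted 0.00012), and Col3a1 gave r = 0.83 (7e-05, adjusted 0.00028) and rho = 0.69 (0.00196, adjusted 0.00784). Without the 2 libraries farthest from the median of Dcn, r was 0.95 for Col1a2, 0.88 for Col1a1 and 0.82 for Col3a1. For Col4a1, Col4a2 and Col6a1, r was -0.15, -0.12 and -0.05 (permutation p = 0.658, 0.751 and 0.873, adjusted 0.789, 0.819 and 0.873), with rho of 0.27, 0.42 and 0.23 (p = 0.282, 0.0822 and 0.347, adjusted 0.338, 0.164 and 0.379).

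Across the 24 hemisphere libraries, Col3a1 gave r = 0.52 (permutation p = 0.0088, adjusted 0.0264) and rho = 0.44 (0.0338, adjusted 0.0811), Col1a2 r = 0.44 (0.0314, adjusted 0.0753) and rho = 0.34 (0.0994, adjusted 0.17), and Col1a1 r = 0.28 (0.18, adjusted 0.27) and rho = 0.48 (0.0197, adjusted 0.059). Without the 2 farthest libraries r was 0.56, 0.41 and 0.59. For Col4a1, Col4a2 and Col6a1 in the hemisphere, r was 0.35, -0.24 and -0.31 (permutation p = 0.0909, 0.257 and 0.142, adjusted 0.182, 0.343 and 0.243). Their rho was 0.23, -0.09 and -0.27 (p = 0.275, 0.662 and 0.202, adjusted 0.338, 0.662 and 0.303). Without the same 2 libraries r was 0.50, 0.15 and 0.05, so Col4a1 lay above Col1a2 there. The difference in r between regions was not tested, and libraries of different treatments are pooled in each.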
